A study of Mus musculus with 8 samples.

Results

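The proteins of the mitochondrial ribosome that are encoded in the nucleus were followed in skeletal muscle from control mice and from mice that lack the histone demethylase LSD1 in their myofibers. Members were the rows of the count table whose symbols begin with Mrpl or Mrps and a digit and whose mean count over the 6 libraries was above 50. Of the 27041 rows, 83 had such a symbol and 76 were kept, 47 Mrpl and 29 Mrps genes. By symbol these are called large and small subunit genes here. By structure Mrps18a and Mrps30 belong to the large subunit and Mrps36 to neither. The lowest member was Mrps33, with a mean count of 127, and the highest row left out was Mrpl23, with a mean count of 40.2. The other rows left out were Mrpl53, with a mean count of 0.17, and 5 pseudogene rows. All 50-base stretches of the Mrpl53 transcript also lay in the overlapping gene Gm42688, and 66.7% of those of Mrpl23 lay in the pseudogene Mrpl23-ps1. The part of this sharing in their low counts was not tested.

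The mice were C57BL/6J, 9 weeks old and, by the study's methods, male. LSD1skm-/- mice carried LSD1 L2/L2 alleles, with a floxed exon 1, and HSA-Cre, which acts in myofibers, so other cells of the muscle keep the gene. Ctrl mice carried the L2/L2 alleles without Cre. Polyadenylated RNA of muscle, given as skeletal muscle in the labels and as gastrocnemius in the methods, was sequenced in 4 Ctrl and 2 LSD1skm-/- libraries. LSD1skm-/- replicates 3 and 4 were not analysed here. The library totals were 36355538, 32616912, 36213735 and 41278769 counts in Ctrl and 30654828 and 37788092 counts in LSD1skm-/- muscle. The labels do not say how the replicates were taken, so p-values measure the spread between these samples, which may be technical in part.

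The mitochondrial ribosome translates the few messages of the mitochondrial genome, all of which code for subunits of the respiratory chain and ATP synthase. Its RNAs come from the mitochondrial genome, whereas its proteins are made in the cytosol and imported, so the genes of the large and small subunit must be expressed together from many nuclear loci. Some of these proteins have a counterpart in bacterial ribosomes and others are specific to mitochondria, and muscle is a tissue with a high respiratory capacity.

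Kdm1a, the gene for LSD1, was read first as a check of the labels. Levels are given in CPM, counts relative to the size of their library after TMM scaling. Kdm1a stood at 22.95, 21.96, 28.06 and 3.66 CPM across Ctrl replicates 1 to 4, and at 2.96 and 3.48 CPM in the 2 LSD1skm-/- libraries. The library labelled Ctrl replicate 4 therefore lay near the LSD1skm-/- libraries and far below the other Ctrl libraries. The log2 fold change of Kdm1a was -2.57 ± 0.74 (SE) with all libraries (adjusted p = 0.557, edgeR's quasi-likelihood test) and -2.91 ± 0.17 without the library labelled Ctrl replicate 4 (adjusted p = 0.000579, edgeR). Over all tested genes too, this library differed less from LSD1skm-/- replicates 1 and 2 (chi-square per degree of freedom 32.9 and 46.5) than from Ctrl replicates 1 to 3 (70.3, 67.8 and 95.4). These values go against its label, whereas its summed level of endothelial genes (201 CPM) was above those of the other Ctrl libraries (154 to 169 CPM) and of the LSD1skm-/- libraries (134 and 132 CPM), and its level of adipocyte genes (489 CPM) was also the highest of the 6. Its mean log2 CPM over slow fiber genes (7.66) lay within the other Ctrl values (7.41 to 8.31) and above the LSD1skm-/- values (5.95 and 7.02). By contrast, its summed level of fibroblast genes (472 CPM) lay between those of the LSD1skm-/- libraries (438 and 513 CPM). The other Ctrl libraries were lower in these genes (323 to 373 CPM). Its level of blood genes (41.97 CPM) was above the other Ctrl libraries (22.95 to 35.39 CPM) and below the LSD1skm-/- libraries (52.4 and 52.4 CPM). Whether the label is wrong was not tested. The label was left as given, and both versions of each main result on the members are reported. The tissue label was checked with 9 genes of fast myofibers, among them Acta1, Ckm and Myh4, whose summed level lay between 165500 and 199700 CPM in the 6 libraries.

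**Figure D1:**
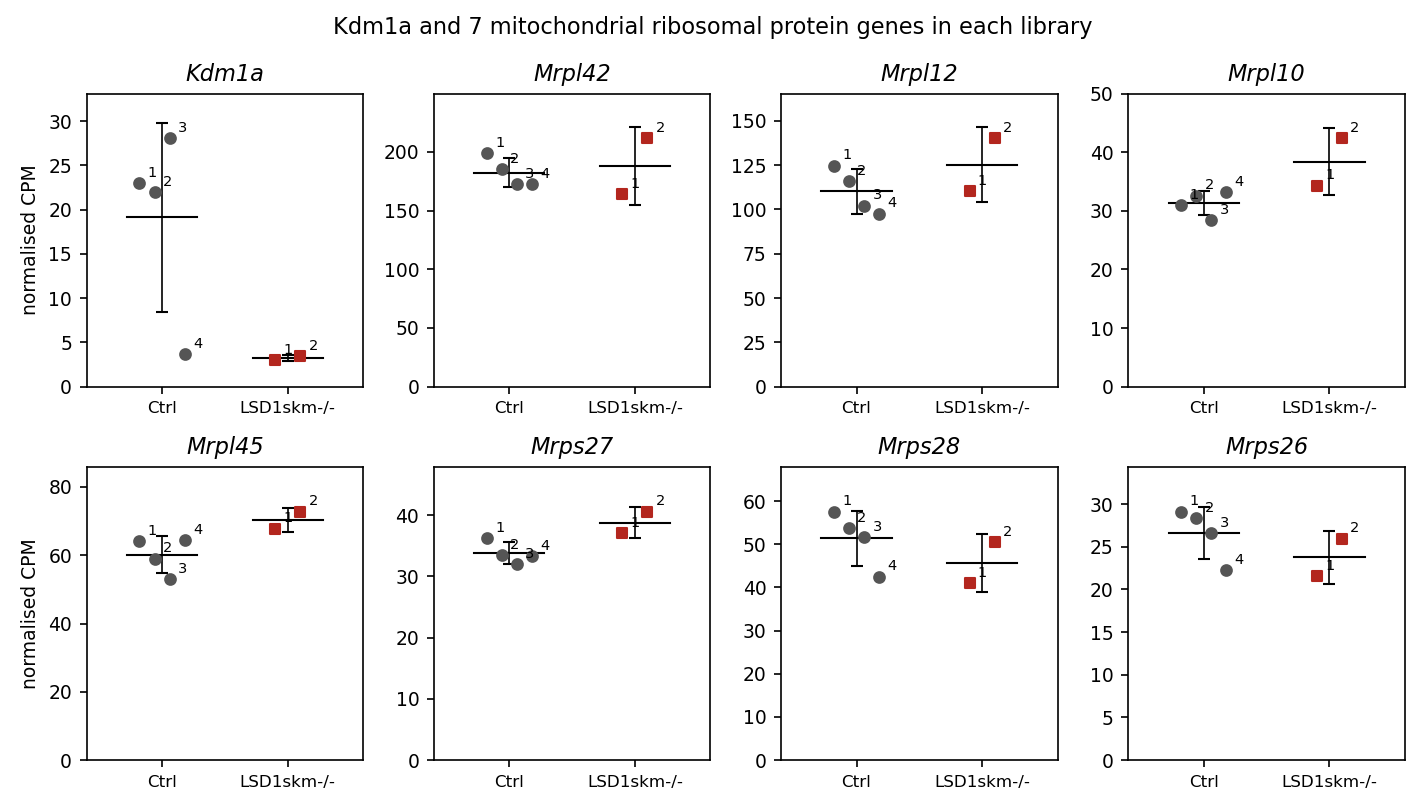
Normalised CPM (vertical axes, from 0) of Kdm1a and 7 members in the 4 Ctrl libraries (grey circles) and 2 LSD1skm-/- libraries (red squares), numbered by replicate, with the mean and SD of each group. Kdm1a is at 3.66 CPM in the library labelled Ctrl replicate 4, and Mrpl10, Mrpl45 and Mrps27 are the members shown whose groups do not overlap.

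Promoters of the members were searched for the letters of 3 transcription factors known to act on nuclear genes of mitochondrial proteins. These were the NRF1 core GCGCNTGCG, the ETS motif CCGGAAGT read by GABP, and the YY1 motif AAGATGGC, each on both strands, in the 250 bases before to 50 bases after the RefSeq start on GRCm38.p6. A promoter was found for 67 of the 76 members. The NRF1 core was in 18 of them (26.9%), against 15.9% of 8887 tested genes with a promoter and 7.12% of all 27025 promoters. The ETS motif was in 12 (17.9%, against 9.41% and 4.31%) and the YY1 motif in 12 (17.9%, against 5.56% and 3.19%). Any of the 3 was in 37 members (55.2%, against 27.6% and 13.3%), 25 of 41 large and 12 of 26 small subunit promoters. The NRF1 core was in 13 large (31.7%) and 5 small (19.2%) subunit promoters, and the YY1 motif in 6 of each (14.6% and 23.1%). A match describes these letters only.

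For members whose values are given below, 1 stretch around a match is shown where it lies wholly before the annotated gene, so that genes with high and low fold changes can be read side by side. Mrpl45 has a second NRF1 match before its start. Mrpl48, Mrps26 and Mrps18c have an ETS match before the RefSeq start that is not shown. The stretch of Mrps26 and of Mrps18c reaches into the GENCODE gene, and that of Mrpl48 lies wholly within it. Each stretch shown is written in the direction of its gene with the motif in capitals. They lie at chr11:97041427-97041475 (Mrpl10, plus strand), chr11:97315659-97315707 (Mrpl45, plus), chr11:120484536-120484584 (Mrpl12, plus), chr1:37890374-37890422 (Mrpl30, plus), chr11:58171611-58171659 (Mrpl22, plus), chr3:95871577-95871625 (Mrps21, minus), chr17:35916636-35916684 (Mrps18b, minus) and chr13:99344717-99344764 (Mrps27, plus).
Mrpl10 NRF1: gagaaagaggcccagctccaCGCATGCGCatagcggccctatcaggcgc
Mrpl45 NRF1: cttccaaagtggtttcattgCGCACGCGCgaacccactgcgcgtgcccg
Mrpl12 NRF1: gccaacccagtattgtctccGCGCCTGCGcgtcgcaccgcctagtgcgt
Mrpl30 NRF1: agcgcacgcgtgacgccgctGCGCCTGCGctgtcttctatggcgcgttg
Mrpl22 NRF1: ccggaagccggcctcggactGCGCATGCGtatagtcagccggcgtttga
Mrps21 NRF1: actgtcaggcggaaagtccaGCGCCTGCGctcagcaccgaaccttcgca
Mrps18b NRF1: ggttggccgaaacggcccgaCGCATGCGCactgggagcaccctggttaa
Mrps27 ETS: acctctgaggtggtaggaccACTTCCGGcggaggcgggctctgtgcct

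Some members began close to another gene. A protein-coding gene began within 1 kb upstream on the other strand for 18 of the 76 members (23.7%), against 1134 of 10711 tested protein-coding genes (10.6%). Such neighbours included Lrrc46 at 153 bases from Mrpl10, Ptcd2 at 81 bases from Mrps27, Mitd1 at 66 bases from Mrpl30 and Ppp1r10 at 45 bases from Mrps18b. Mrps12, chosen after its position was seen, encodes a protein of the decoding centre and started 172 bases from Sars2, the mitochondrial seryl-tRNA synthetase. Exons of 7 members overlapped another gene on the same strand and those of 27 a gene on the opposite strand. The strand setting of the counting is not stated, so reads of such pairs cannot be told apart. With a gene at another locus, 12 members shared over 10% of their 50-base stretches, among them Mrps36 (36.2%) and Mrpl22 (33.4%). What this does to their counts was not tested.

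Levels were compared between genes per length, as the mean CPM of the 6 libraries per kilobase of the longest coding transcript. The median level was 25.9 CPM per kilobase over the large and 16.1 over the small subunit genes. In single libraries the median level of the large subunit genes was 27.8, 24.4, 23.5 and 23.7 CPM per kilobase in Ctrl and 24.9 and 29.5 in LSD1skm-/-, and that of the small subunit genes was 15.9, 16.2, 15.6 and 15.6 in Ctrl and 14.9 and 18.1 in LSD1skm-/-. The large subunit genes were thus higher per length in each of the 6 libraries, whatever the group. With the median length of the coding transcripts in place of the longest, the levels were 35.1 and 20.1 CPM per kilobase, again higher in the large subunit.

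Within the subunits, levels per length differed far more than between them. Mrpl42, a large subunit protein specific to mitochondria, stood highest at 277 CPM per kilobase, followed by Mrpl33 at 104.2 and Mrpl54 at 101.3, both short proteins of the same subunit. Among the Mrps symbols Mrps21, the counterpart of bacterial S21, led at 103 CPM per kilobase. It was followed by Mrps18a at 69.7, a large subunit protein by structure, and Mrps28 at 63.2. The lowest levels per length were those of Mrpl19 (3.73) and Mrpl47 (6.20) in the large and Mrps33 (3.21) and Mrps25 (4.79) in the small subunit. These ranks depend on the transcript length used. With the median length Mrpl42 (279) and Mrps21 (124) still led, Mrpl30 was next in the large subunit (138), Mrps23, chosen after its values were seen, was next in the small subunit (110), and Mrps33 (4.96) stood just above Mrps25 (4.79). The longest annotated transcripts of Mrpl19 (5000 bases) and Mrps25 (6073 bases) are long for this family. Exons of Mrpl19 and Mrps25 also overlap Gcfc2 and Nr2c2 on the opposite strand, and 20.98% of the 50-base stretches of Mrps33 lie in a gene at another locus too.

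**Figure D2:**
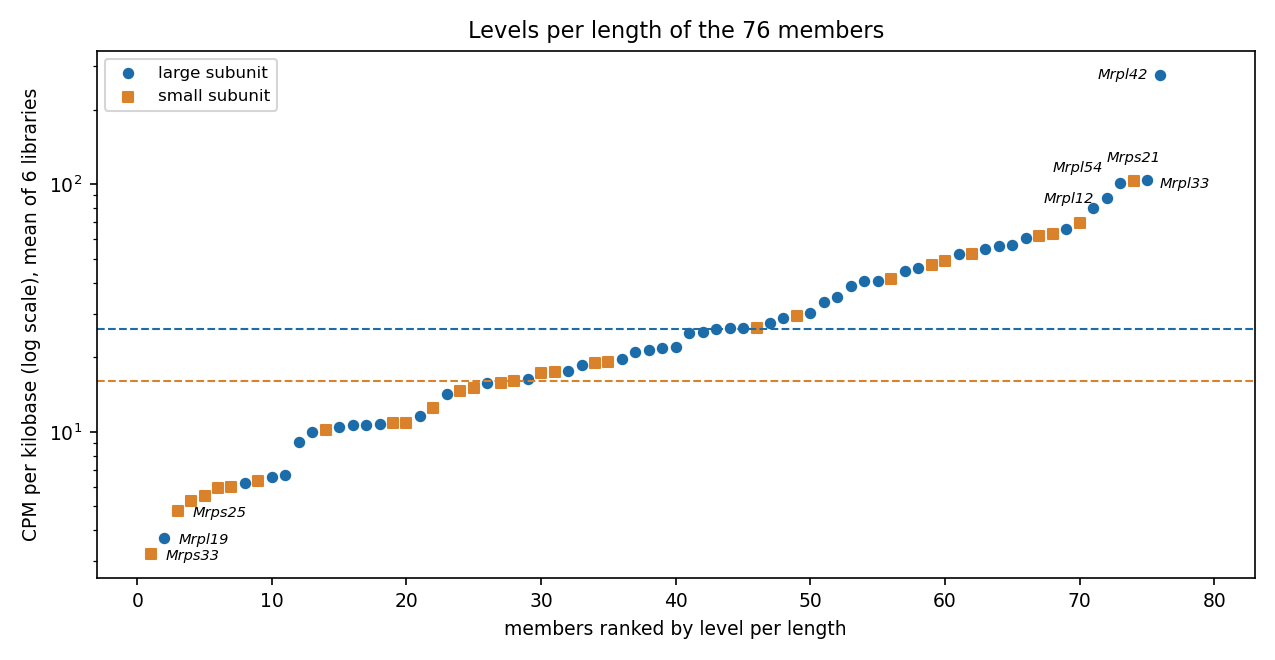
Mean CPM per kilobase over the 6 libraries (vertical axis, log scale) for the 76 members in order of their level, with large subunit genes as blue circles and small subunit genes as orange squares. Dashed lines mark the subunit medians of 25.9 and 16.1, and Mrpl42 stands apart at 277.

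The members moved together from library to library, and not along the groups. Each gene's log2 CPM was set against its own mean over the 6 libraries. In LSD1skm-/- replicate 2, 74 of 76 members lay above their own mean (97.4%), and in Ctrl replicate 1, 70 did (92.1%). The counts were 39 in Ctrl replicate 2, 15 in LSD1skm-/- replicate 1, 11 in the library labelled Ctrl replicate 4 and 8 in Ctrl replicate 3. Of all tested genes, between 49.3% and 51.4% lay above their mean in any library. LSD1skm-/- replicate 2 held the highest value of 55 members and Ctrl replicate 1 that of 17, against 22.3% and 12.6% of all tested genes. Ctrl replicate 3 held the lowest value of 34 members and LSD1skm-/- replicate 1 that of 23, against 19.0% and 15.5%. One LSD1skm-/- library was thus high and the other low, and the same was true within Ctrl.

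Both subunits had the same 2 high libraries. The median deviation on the log2 scale in Ctrl replicates 1 to 4 was 0.07, 0.00, -0.13 and -0.08 over the large and 0.08, 0.01, -0.08 and -0.06 over the small subunit genes. In LSD1skm-/- replicates 1 and 2 it was -0.06 and 0.18 over the large and -0.06 and 0.17 over the small subunit genes. The lowest value lay in Ctrl replicate 3 for 26 large and 8 small subunit genes and in LSD1skm-/- replicate 1 for 12 large and 11 small subunit genes. The difference in mean log2 CPM between the large and the small subunit genes stayed between 0.50 (Ctrl replicate 3) and 0.60 (LSD1skm-/- replicate 2) in all libraries, a narrow range in which the groups overlapped. The members varied little as single genes too. The median SD of log2 CPM over the 6 libraries was 0.13 for the members and 0.19 for all tested genes, and the highest library of a member was at a median of 1.28 times its lowest, against 1.42 times for all tested genes. Among the 8966 tested genes within the members' range of levels, these medians were 0.17 and 1.38.

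**Figure D3:**
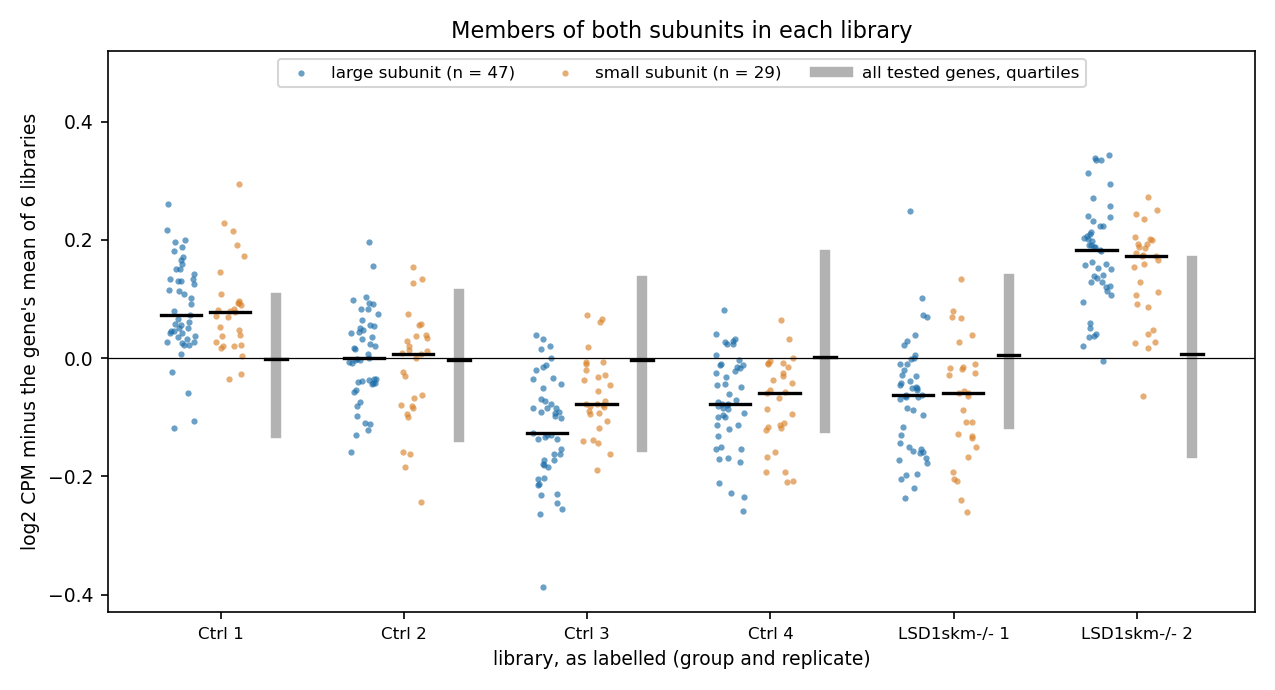
Difference of each member's log2 CPM from its own mean over the 6 libraries (vertical axis) by library, for large (blue) and small (orange) subunit genes, with medians as black lines and the quartiles and median of all 11364 tested genes in grey. Members sit above 0 in Ctrl replicate 1 and LSD1skm-/- replicate 2. They sit mostly below it in Ctrl replicate 3, the library labelled Ctrl replicate 4 and LSD1skm-/- replicate 1.

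Between the groups, no member had an adjusted p under 0.05 by edgeR, and leaving the library labelled Ctrl replicate 4 aside did not alter this. Over all 11364 tested genes the share called at this limit was 0.0% with all libraries and 5.39% without that library. At an unadjusted p under 0.05, 1 member passed in each comparison by edgeR, Mrpl10, against 8.9% of all tested genes with all libraries and 20.2% without the library labelled Ctrl replicate 4. DESeq2 called no member at an adjusted p under 0.05, and at an unadjusted p under 0.05 it called 0 with all libraries and 1 without that library, against 1105 and 2203 of all 11364 tested genes. By edgeR, 4 members passed the unadjusted limit without LSD1skm-/- replicate 1, where 905 of all tested genes did, and 0 did without Ctrl replicate 1, Ctrl replicate 2, Ctrl replicate 3 or LSD1skm-/- replicate 2, where 586, 702, 691 and 391 of all tested genes did. The smallest adjusted p of any member by edgeR was 0.557 with all libraries and 0.202 without the library labelled Ctrl replicate 4.

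The fitted log2 fold changes were small and leaned to higher levels in LSD1skm-/- muscle under each scaling, and to lower levels without LSD1skm-/- replicate 2. With all libraries 35 of 47 large and 21 of 29 small subunit genes had a higher fitted level, 56 of 76 members (73.7%), against 48.6% of all tested genes. Without the library labelled Ctrl replicate 4 the counts were 33 and 20, 53 of 76 (69.7%), against 49.0%. The median log2 fold change was 0.09 for the large and 0.08 for the small subunit genes, beside -0.01 for all tested genes, and 0.10 and 0.07 beside -0.01 without the library labelled Ctrl replicate 4. The median of the large minus that of the small subunit genes was 0.01 with all libraries and 0.03 without that library. Without LSD1skm-/- replicate 2, 26 of 76 members had a higher fitted level and the medians were -0.03 for both subunits. Without LSD1skm-/- replicate 1, 71 members did, with medians of 0.18 for both.

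The intervals give the fold changes that the fit allowed for each member, and they rest on 2 LSD1skm-/- libraries. Fold changes ran from -0.17 (Mrps28) to 0.29 (Mrpl10) on the log2 scale, and the 95% intervals of all 76 members lay within a factor of 2 in either direction. For 75 of 76 members the interval lay within a factor of 1.5 and for 43 within a factor of 1.3, against 56.5% and 22.1% of all tested genes. Without the library labelled Ctrl replicate 4 the counts were 73 and 33, against 56.0% and 20.5% of all tested genes. With the subunits set by structure, with Mrps30 and Mrps18a in the large subunit and Mrps36 in neither, the medians were 0.09 over 49 large and 0.06 over 26 small subunit genes.

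**Figure D4:**
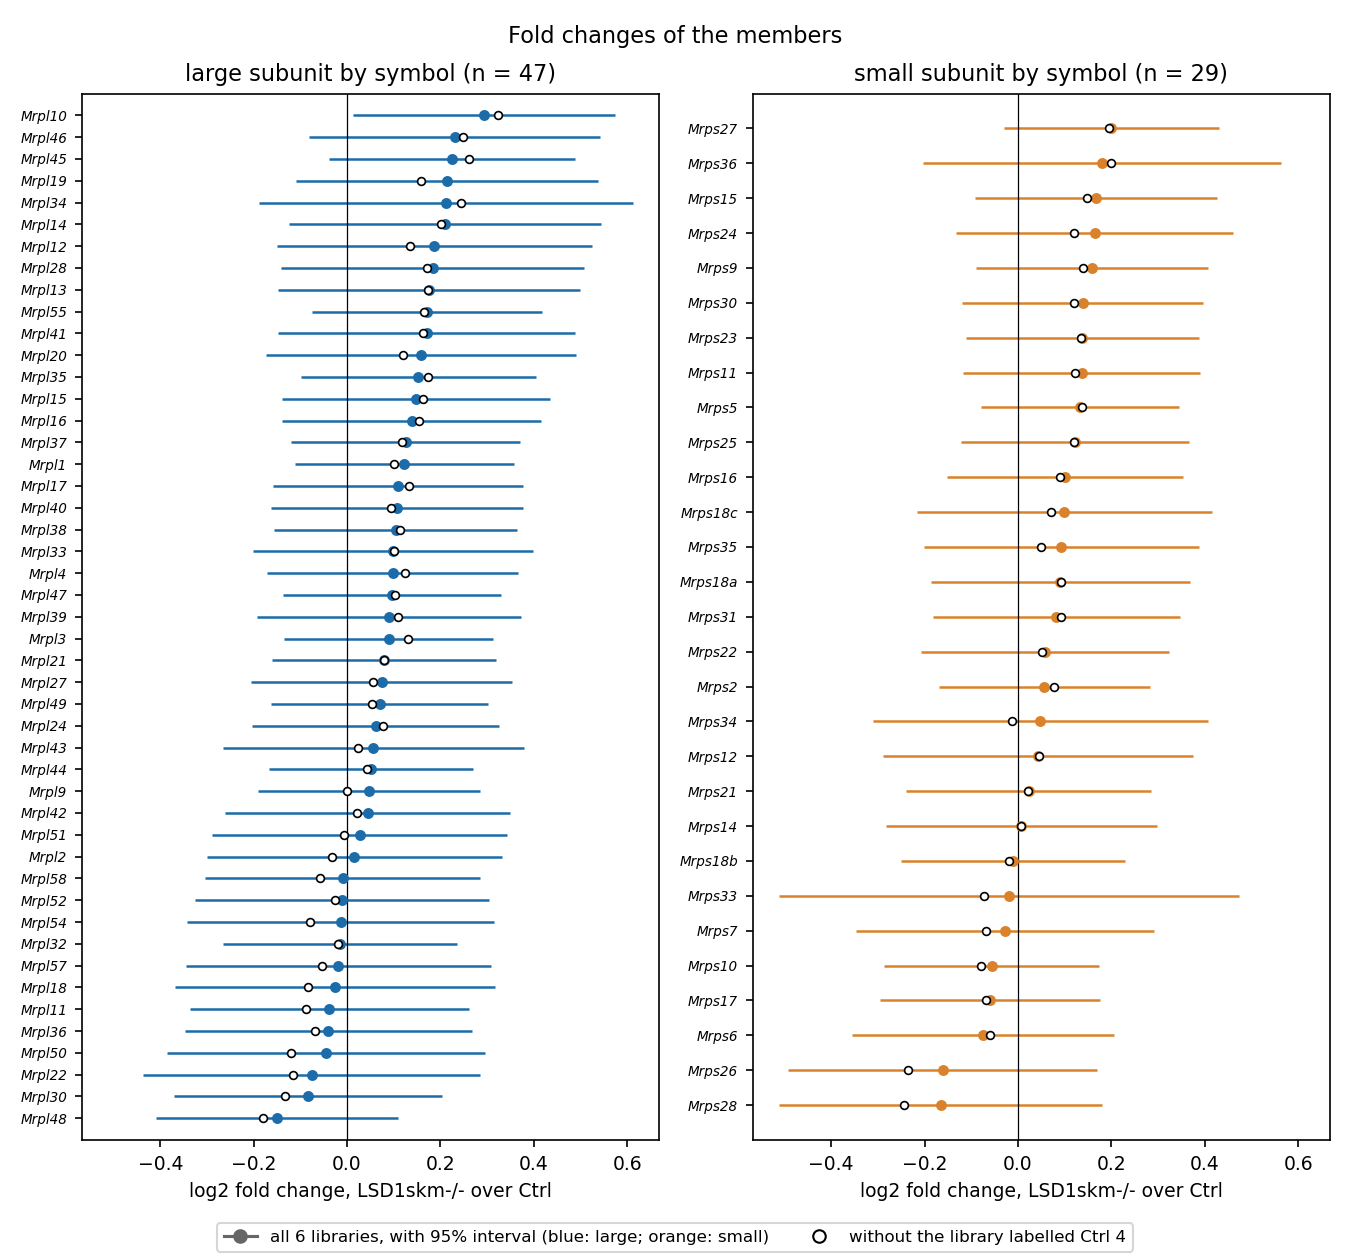
Log2 fold change of LSD1skm-/- over Ctrl (horizontal axis) for each of the 47 large and 29 small subunit genes, in order, with 95% intervals for all 6 libraries as filled points and the value without the library labelled Ctrl replicate 4 as open points. All intervals but that of Mrpl10 cross 0.

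Members whose groups did not overlap were about as frequent as among all tested genes, or less so. With all libraries both LSD1skm-/- libraries lay above every Ctrl library for 6 members (7.89%), against 9.8% of all tested genes, and below every Ctrl library for 0 members, against 8.02%. The 6 were Mrpl10, Mrpl45, Mrps25, Mrps27, Mrps36 and Mrps5, the last chosen after its values were seen. Without the library labelled Ctrl replicate 4, 7 members lay above (9.21%, against 20.3%) and 4 below (5.26%, against 17.3%). The 4 were Mrpl48, Mrps26, Mrps28 and Mrps10, the last again chosen after its values were seen.

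Mrpl10 is the stalk base protein of the large subunit, to which copies of Mrpl12 bind to recruit elongation factors. It lies at chr11:97041560-97049213. Mrpl10 had 31.0, 32.6, 28.5 and 33.1 CPM in Ctrl replicates 1 to 4 and 34.3 and 42.4 CPM in LSD1skm-/- replicates 1 and 2. Both LSD1skm-/- libraries were above all Ctrl libraries, replicate 1 by little and replicate 2 by more. Its log2 fold change was 0.29 ± 0.12 (SE, 95% interval 0.01 to 0.57) with an unadjusted p of 0.043 and an adjusted p of 0.557 by edgeR, and 0.32 ± 0.12 (adjusted p = 0.202, edgeR) without the library labelled Ctrl replicate 4. Over the other settings the log2 fold change stayed above 0, between 0.13 (without LSD1skm-/- replicate 2) and 0.43 (without LSD1skm-/- replicate 1), with adjusted p from 0.134 to 0.947.

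Mrpl12 itself had 125, 116, 102 and 97.7 CPM in Ctrl and 111 and 140 CPM in LSD1skm-/-. LSD1skm-/- replicate 1 lay within the Ctrl range and replicate 2 above it, so the groups overlapped. Its log2 fold change was 0.19 ± 0.15 (SE, 95% interval -0.15 to 0.52), and it was 0.00 without LSD1skm-/- replicate 2 and 0.34 without LSD1skm-/- replicate 1.

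Mrpl45 lines the exit of the peptide tunnel and holds the ribosome to the inner membrane, and Mrpl46 belongs to the central protuberance. Mrpl45 had 64.2, 59.0, 52.9 and 64.4 CPM in Ctrl and 67.8 and 72.7 CPM in LSD1skm-/-, with no overlap. Mrpl46 had 22.9, 18.7, 17.4 and 20.55 CPM in Ctrl and 21.99 and 24.72 CPM in LSD1skm-/-, where Ctrl replicate 1 exceeded LSD1skm-/- replicate 1. Their log2 fold changes were 0.22 (95% interval -0.04 to 0.49) and 0.23 (95% interval -0.08 to 0.54). They were 0.26 and 0.25 without the library labelled Ctrl replicate 4, and 0.17 and 0.14 without LSD1skm-/- replicate 2.

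At the other end of the large subunit were Mrpl48, also of the central protuberance, Mrpl30, and Mrpl22, which lines the tunnel. Mrpl48 had 32.7, 29.4, 29.1 and 27.8 CPM in Ctrl and 25.02 and 28.55 CPM in LSD1skm-/-. Its groups overlapped only through the library labelled Ctrl replicate 4, and the log2 fold change was -0.15 (95% interval -0.41 to 0.11), or -0.18 without that library, -0.06 without LSD1skm-/- replicate 1 and -0.25 without LSD1skm-/- replicate 2. Mrpl30 had 103, 93.2, 93.2 and 83.2 CPM in Ctrl and 80.9 and 95.1 CPM in LSD1skm-/-, and Mrpl22 had 14.55, 14.54, 11.01 and 11.84 CPM in Ctrl and 11.6 and 13.0 CPM in LSD1skm-/-. Both sets of groups overlapped, and the log2 fold changes were -0.08 for both, with 95% intervals of -0.37 to 0.20 and -0.44 to 0.28. Without LSD1skm-/- replicate 1 they were 0.02 and 0.00. Mrpl30 and Mrpl22, low in the order of fold changes, carry the NRF1 letters shown above, as do Mrpl10 and Mrpl45 near its top. No NRF1 match was found for Mrpl46, which lies between Mrpl10 and Mrpl45, or for Mrpl48, the lowest. A promoter was found for 67 of the 76 members only, so a member without a match may lack a promoter. The part of these letters in the fold changes was not tested.

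The 3 large subunit genes with the highest level per length came next. Mrpl42 had 199, 185, 172 and 173 CPM in Ctrl and 164 and 212 CPM in LSD1skm-/-, so the LSD1skm-/- libraries held both its lowest and its highest value. Its log2 fold change was 0.04 (95% interval -0.26 to 0.35), and 18.8% of its 50-base stretches lie in a gene at another locus too. For Mrpl33 and Mrpl54 the log2 fold changes were 0.10 (95% interval -0.20 to 0.40) and -0.01 (95% interval -0.34 to 0.32). The direction turned without LSD1skm-/- replicate 2 for Mrpl42 (-0.15) and Mrpl33 (-0.12), and for Mrpl54 without Ctrl replicate 1 (0.04), Ctrl replicate 2 (0.01) or LSD1skm-/- replicate 1 (0.12). Of the lowest, Mrpl19 had a log2 fold change of 0.22 (95% interval -0.11 to 0.54), or 0.10 without LSD1skm-/- replicate 1, and Mrpl47 of 0.10 (95% interval -0.14 to 0.33), or 0.05 without LSD1skm-/- replicate 2.

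Among the Mrps symbols the highest fold changes were those of Mrps27, Mrps36 and Mrps15. Mrps36 belongs to neither subunit by structure. Mrps27 is a pentatricopeptide repeat protein, and Mrps15 binds the ribosomal RNA of the small subunit. Mrps27 had 36.3, 33.5, 32.1 and 33.3 CPM in Ctrl and 37.0 and 40.6 CPM in LSD1skm-/-. The groups did not overlap, although Ctrl replicate 1 and LSD1skm-/- replicate 1 were close. Its log2 fold change was 0.20 ± 0.10 (SE, 95% interval -0.03 to 0.43, adjusted p = 0.566 by edgeR), and 0.20 without the library labelled Ctrl replicate 4. Mrps15 had 59.5, 56.4, 53.1 and 53.1 CPM in Ctrl and 56.9 and 67.9 CPM in LSD1skm-/-, with overlap and a log2 fold change of 0.17 (95% interval -0.09 to 0.43). The value was 0.03 without LSD1skm-/- replicate 2 and 0.28 without LSD1skm-/- replicate 1, and for Mrps27 it was 0.13 and 0.26.

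The lowest were Mrps28, the counterpart of bacterial S1, Mrps26 and Mrps6. Mrps28 had 57.5, 53.7, 51.6 and 42.5 CPM in Ctrl and 41.0 and 50.5 CPM in LSD1skm-/-, and Mrps26 had 29.1, 28.3, 26.6 and 22.3 CPM in Ctrl and 21.6 and 25.9 CPM in LSD1skm-/-. In both genes the library labelled Ctrl replicate 4 lay between the LSD1skm-/- libraries and the other 3 Ctrl libraries lay above them. The log2 fold changes were -0.17 ± 0.15 (SE, 95% interval -0.51 to 0.18) and -0.16 ± 0.14 (SE, 95% interval -0.49 to 0.17). They were -0.03 and -0.04 without LSD1skm-/- replicate 1, and -0.32 and -0.30 without LSD1skm-/- replicate 2. Without the library labelled Ctrl replicate 4 they were -0.24 ± 0.12 and -0.24 ± 0.12, with adjusted p of 0.314 and 0.319 by edgeR. Mrps6, the counterpart of bacterial S6, whose exons overlap Slc5a3 on the same strand, had a log2 fold change of -0.07 (95% interval -0.36 to 0.21), Mrps21 of 0.02 (95% interval -0.24 to 0.29), Mrps25 of 0.12 (95% interval -0.12 to 0.37, or 0.07 without Ctrl replicate 3) and Mrps33 of -0.02 (95% interval -0.51 to 0.47). The direction turned for Mrps6 without LSD1skm-/- replicate 1 (0.02), for Mrps21 without LSD1skm-/- replicate 2 (-0.13) and for Mrps33 without Ctrl replicate 1 (0.09) or LSD1skm-/- replicate 1 (0.15).

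Several Mrps symbols do not name what the protein does. The S18 family has 3 members, of which Mrps18c takes the place of bacterial S18, Mrps18b sits elsewhere in the small subunit and Mrps18a belongs to the large subunit. Mrps18a had 66.2, 57.3, 57.6 and 60.1 CPM in Ctrl and 57.8 and 70.6 CPM in LSD1skm-/-. Mrps18b had 17.1, 16.6, 15.2 and 15.9 CPM in Ctrl and 15.8 and 16.3 CPM in LSD1skm-/-, and Mrps18c 13.1, 13.0, 12.6 and 11.8 CPM in Ctrl and 11.7 and 15.3 CPM in LSD1skm-/-. The groups overlapped for all 3, and the log2 fold changes were 0.09, -0.01 and 0.10, with 95% intervals of -0.19 to 0.37, -0.25 to 0.23 and -0.22 to 0.42. The direction turned for Mrps18a and Mrps18c without LSD1skm-/- replicate 2 (-0.06 and -0.11) and for Mrps18b without Ctrl replicate 1 (0.02) or LSD1skm-/- replicate 1 (0.01). Per length, Mrps18a stood at 69.7 CPM per kilobase, above Mrps18b at 15.0 and Mrps18c at 15.8, although 30.9% and 13.1% of the 50-base stretches of the last 2 are shared with other loci.

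Mrps30 is a large subunit protein by structure, and Mrps36 is now known as a part of the alpha-ketoglutarate dehydrogenase complex. Mrps30 had 42.3, 36.3, 43.2 and 38.2 CPM in Ctrl and 42.03 and 46.07 CPM in LSD1skm-/-, with a log2 fold change of 0.14 (95% interval -0.12 to 0.40), or 0.07 without LSD1skm-/- replicate 2 and 0.09 without Ctrl replicate 2. Its LSD1skm-/- values lay among or just above the higher Ctrl values. Mrps36 had 4.37, 3.48, 3.91 and 4.12 CPM in Ctrl and 4.54 and 4.47 CPM in LSD1skm-/-, without overlap but by a small margin, with a log2 fold change of 0.18 (95% interval -0.20 to 0.56).

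Members were also divided by origin within each structural subunit, into proteins with a counterpart in bacterial ribosomes and proteins specific to mitochondria. Of the 29 large subunit genes with a bacterial counterpart 23 were fitted higher in LSD1skm-/- muscle (median log2 fold change 0.10), and of the 20 specific to mitochondria 14 did, with a median of 0.06. In the small subunit 11 of 16 and 7 of 10 did, with medians of 0.05 and 0.07. Without the library labelled Ctrl replicate 4 the medians were 0.12, 0.05, 0.06 and 0.05. Median levels per length were 28.9 and 23.5 CPM per kilobase in the large and 17.3 and 15.5 in the small subunit, so the difference between subunits held within each origin.

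Lists of other genes of mitochondrial translation were read beside the members. None of their 77 tested genes had an adjusted p under 0.05 by edgeR or DESeq2 with all libraries, and 9 had an unadjusted p under 0.05 by each tool, against 1011 of the 11364 tested genes by edgeR and 1105 by DESeq2. The 5 mitoribosomal proteins named otherwise (Dap3, Ptcd3, Chchd1, Gadd45gip1 and Aurkaip1) were all fitted higher, with a median log2 fold change of 0.18, and 4 of them were without LSD1skm-/- replicate 2 (median 0.07). Chchd1 had 95.9, 86.2, 73.2 and 86.0 CPM in Ctrl and 85.4 and 110 CPM in LSD1skm-/-, where LSD1skm-/- replicate 2 was again the highest library. Of 13 translation factors 12 were higher, with a median of 0.12, and of 17 mitochondrial aminoacyl-tRNA synthetases 15 were, with a median of 0.13. Unlike the members, these 2 lists kept their direction without LSD1skm-/- replicate 2, with 11 and 14 genes higher and medians of 0.13 and 0.14. Of 25 assembly factors of the ribosome 18 were higher (median 0.03, and between 0.02 and 0.11 with a library left out), or 13 without LSD1skm-/- replicate 2. Of 17 genes of mitochondrial RNA synthesis and stability 8 were higher (median 0.00, and between -0.02 and 0.04 with a library left out). Without the library labelled Ctrl replicate 4, Pars2, the prolyl-tRNA synthetase, and Mterf2, a transcription termination factor family member, passed the adjusted limit by edgeR, with log2 fold changes of 0.98 (adjusted p = 0.047) and 0.59 (adjusted p = 0.025). DESeq2 called 5 of the 77 in this comparison, against 1056 of all tested genes, and edgeR these 2 against 612. Pars2 had 2.40, 2.28, 1.68 and 3.54 CPM in Ctrl and 3.78 and 4.55 CPM in LSD1skm-/-, and Mterf2 had 13.1, 12.3, 11.7 and 14.5 CPM in Ctrl and 18.4 and 18.9 CPM in LSD1skm-/-, both without overlap.

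Genes outside translation gave a frame for the members. Of 73 genes of the respiratory chain and ATP synthase 68 were fitted higher, with a median log2 fold change of 0.11, and of 60 cytosolic ribosomal protein genes 43 were, also with a median of 0.11. Like the members, both lists turned without LSD1skm-/- replicate 2, with 25 and 18 genes higher and medians of -0.04 and -0.07. Without LSD1skm-/- replicate 1 the medians were 0.25 and 0.28, and without Ctrl replicate 1 that of the respiratory chain was 0.18. Without the library labelled Ctrl replicate 4, 61 of 73 respiratory chain genes (median 0.08) and 45 of 60 cytosolic ribosomal protein genes (median 0.10) were higher. These lists had the same 2 high libraries as the members, with 70 respiratory chain genes above their own mean in Ctrl replicate 1 and 71 in LSD1skm-/- replicate 2, and between 5 and 8 in the other 4 libraries. For the cytosolic ribosomal proteins the counts were 51 and 52, and between 9 and 18 in the others. The order of the remaining libraries differed, since in Ctrl replicate 2, where 39 of 76 members lay above their mean, 5 of 73 respiratory chain genes did. Of 18 genes of mitochondrial mass, such as Cs, Vdac1 and Slc25a4, 9 were higher (median 0.00), and of 12 regulators of mitochondrial genes 6 were (median -0.02). Of these regulators 2 were higher without LSD1skm-/- replicate 1 (median -0.22) and 7 without LSD1skm-/- replicate 2 (median 0.05), and of the mass genes 10 (median 0.04) and 6 (median -0.07). Without the library labelled Ctrl replicate 4, 5 regulators (median -0.10) and 7 mass genes (median -0.04) were higher. Esrra, the most abundant regulator, had 130, 128, 116 and 104 CPM in Ctrl and 126 and 131 CPM in LSD1skm-/-, with overlap. Among the other regulators, 2 were chosen after their values were seen: Ppargc1a had 52.7, 50.1, 57.4 and 33.7 CPM in Ctrl and 91.2 and 36.3 CPM in LSD1skm-/-, and Nrf1 had 10.5, 10.5, 10.3 and 9.53 CPM in Ctrl and 9.64 and 9.73 CPM in LSD1skm-/-. Ppargc1a was highest in LSD1skm-/- replicate 1 and lowest in the library labelled Ctrl replicate 4, and the members were low in both. The part of these regulators in the members' values was not tested.

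**Figure D5:**
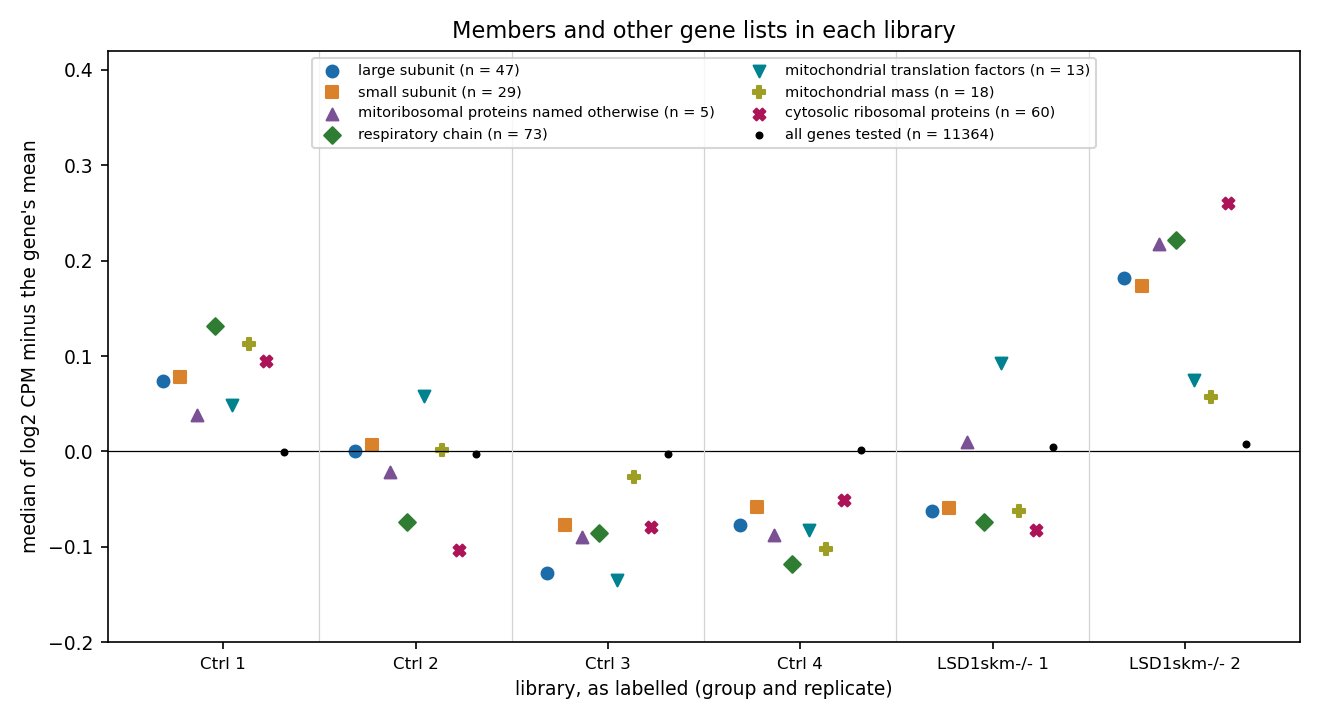
Median over the genes of a list of log2 CPM minus each gene's mean over the 6 libraries (vertical axis), by library, for the members and 5 other lists beside all tested genes. The members, the respiratory chain and the cytosolic ribosomal proteins share their highest medians in LSD1skm-/- replicate 2, at 0.17 to 0.26.

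Deviations differed with transcript length. Members were short, with a median of 1368 bases against 3174 for tested genes. Tested genes under 1500 bases had median log2 deviations of 0.06 in Ctrl replicate 1 and 0.16 in LSD1skm-/- replicate 2, and those over 3000 bases of -0.03 and -0.07. The reverse held in Ctrl replicate 3 and LSD1skm-/- replicate 1, with -0.08 and -0.09 for the short and 0.05 and 0.05 for the long tested genes. In Ctrl replicate 2 and the library labelled Ctrl replicate 4 the short tested genes had -0.03 and -0.01 and the long ones 0.02 and -0.01. The 44 members under 1500 bases had 0.09, 0.00, -0.09 and -0.08 in Ctrl and -0.07 and 0.19 in LSD1skm-/-, by replicate number. The 17 members over 3000 bases had 0.05, -0.01, -0.08 and -0.04 in Ctrl and -0.04 and 0.12 in LSD1skm-/-. These lengths are those of the longest coding transcript. The median coding length of a long member can be far shorter, as for Mrpl48 (4285 and 865 bases), or the same, as for Mrpl19 (5000 bases). Which transcripts were present in the muscle was not tested, so the long class may hold members that were short there. The median log2 fold change was 0.09 for the short members and 0.05 for the 1647 short tested genes, and 0.10 for the long members and -0.03 for the 6051 long tested genes. The part of length in the members' values was not tested beyond these medians.

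Markers of fiber types and other cells differed between the libraries beside the members. In bulk tissue fewer cells of a type and less RNA per cell cannot be told apart. Of 8 genes of slow and oxidative fibers 7 were fitted lower in LSD1skm-/- muscle (median log2 fold change -1.27, or -2.03 without LSD1skm-/- replicate 2 and -0.94 without LSD1skm-/- replicate 1), and their summed level was 2996, 2234, 3465 and 2724 CPM in Ctrl and 1833 and 2517 CPM in LSD1skm-/-. Myh2 was the most abundant, and Myh7, the slow myosin heavy chain, had a log2 fold change of -2.45 without the library labelled Ctrl replicate 4 (adjusted p = 0.031, edgeR), where DESeq2 called 3 slow fiber and 4 adipocyte genes. With all libraries edgeR called none of either list, with 6 and 5 at an unadjusted p under 0.05, against 1011 of all 11364 tested genes. DESeq2 called 2 and 4, against 46 of all tested genes. Without the filter on low counts edgeR called 6 and 5, against 149 of 27041 genes. With the replicate block it called 5 and 5, against 632 of all tested genes. All 6 tested adipocyte genes were fitted lower, with a median of -4.22 and summed levels, most of them Fabp4, of 350, 305, 172 and 489 CPM in Ctrl and 166 and 177 CPM in LSD1skm-/-. Adipocyte genes were thus high in Ctrl replicates 1 and 2 and the library labelled Ctrl replicate 4. They were low in Ctrl replicate 3 and both LSD1skm-/- libraries, an order that the members did not have.

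Among other markers, 5 of 5 fibroblast genes (median 0.34) and 3 of 3 blood genes (median 0.67) were fitted higher, and 5 of 5 endothelial genes (median -0.34) lower. Leaving out the library labelled Ctrl replicate 4, edgeR's adjusted limit was passed by Lum (log2 fold change 0.81, adjusted p = 0.030) of the fibroblast genes and by Hbb-bs (0.82, adjusted p = 0.036) and Alas2 (0.90, adjusted p = 0.048) of the blood genes, and DESeq2 called 4 fibroblast genes and 1 blood gene. Summed levels of the fibroblast genes, led by Dcn, were 356, 323, 373 and 472 CPM in Ctrl and 438 and 513 CPM in LSD1skm-/-, and those of the blood genes, led by Hbb-bs, 35.39, 22.95, 30.29 and 41.97 CPM in Ctrl and 52.4 and 52.4 CPM in LSD1skm-/-. Summed levels of the endothelial genes, led by Cdh5, were 154, 162, 169 and 201 CPM in Ctrl and 134 and 132 CPM in LSD1skm-/-. Of 4 immune genes 3 were higher (median 0.28), or 1 without LSD1skm-/- replicate 2 (median -0.28), with summed levels of 21.2, 17.7, 8.09 and 13.4 CPM in Ctrl and 11.6 and 17.9 CPM in LSD1skm-/-. Cd3e had no count in Ctrl replicate 3 or in either LSD1skm-/- library. The brown adipocyte marker Ucp1 had no count in Ctrl replicate 3 and LSD1skm-/- replicate 1, and Cidea had a log2 fold change of 0.40, which was 0.16 without Ctrl replicate 2, 0.09 without Ctrl replicate 3 and 1.04 without the library labelled Ctrl replicate 4. The part of these cells in the members' values was not tested.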

How the data were processed

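Per the labels, libraries were made with a kit that keeps strand and base calls with bcl2fastq 2.20.0.422. Before counting, single-end 50-base reads were freed of adapter dimers, placed on mm10 and, where uniquely aligned, quantified per gene by HOMER. The study's methods name htseq-count for the mapping, and no aligner and no strand setting of the counting are given in the sources used here. The table that the authors deposited holds whole-number counts, not normalized. The 11364 genes with a mean count above 50 were tested by edgeR 4.0.16 under R 4.3.3: TMM factors, a model of condition alone, quasi-likelihood F tests, and p-values adjusted by Benjamini and Hochberg's method over these genes. Standard errors came from the fold change and the F statistic, and 95% intervals from the test's degrees of freedom. DESeq2 1.42.0 was the alternative. Deviations used log2 CPM with a prior count of 2. Summaries were made with Python 3.11.15 and pandas 2.3.3. Coordinates, lengths and shared 50-base stretches came from GENCODE release 21 on GRCm38, and promoters from RefSeq. The members and lists were chosen with earlier results of these data known. Named genes were, in each subunit, the 3 highest and 2 lowest levels per length and the 3 highest and 3 lowest log2 fold changes; members with an unadjusted p under 0.05, or an adjusted p under 0.05 without the library labelled Ctrl replicate 4; the S18 family, Mrps30, Mrps36, Mrpl12 and Kdm1a; and of each list at most 3 of the 2 most abundant genes and those passing a test.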

Additional observations from a re-analysis of the deposited data

Results flagged for a closer look

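Of 50 results examined for a Ctrl library far from the other 3, 3 stood out, where chance alone marks about 1 in 20. For Kdm1a the library labelled Ctrl replicate 4 (3.66 CPM, against 22.95, 21.96 and 28.06) lay below the others by 0.879 of the range on the log2 scale. For the adipocyte genes Ctrl replicate 3 had a mean log2 CPM of 0.91, against 4.20, 4.15 and 4.79, a gap of 0.835 of the range. For the fibroblast genes the library labelled Ctrl replicate 4 had a mean log2 CPM of 5.87, against 5.32, 5.28 and 5.33, a gap of 0.912 of the range. The LSD1skm-/- libraries had means of 5.687 and 5.961 over the fibroblast genes, on either side of this value. None of the 25 named members and neither subunit's mean stood out in this way.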

How the results depend on the processing

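The settings were DESeq2, library size, upper-quartile and RLE scaling, no filter on low counts, a mean count above 200, a replicate block, each library left out, and, chosen after seeing the data, DESeq2, library size and upper-quartile scaling without the library labelled Ctrl replicate 4. No member had an adjusted p under 0.05 in any of them. Members at an unadjusted p under 0.05, 1 by edgeR, were 0 with DESeq2, upper-quartile scaling, no filter, the replicate block or the study's thresholds (a fold outside 0.77 to 1.3), 2 with library size scaling, 3 with it without the library labelled Ctrl replicate 4, and 0 to 4 with a library left out; of all 11364 tested genes 1105 (DESeq2), 985 (upper-quartile), 1677 (block), 830, 2336 and 391 to 2292 passed, and 2189 of 27041 without the filter. With a library left out, members with a higher fitted level ranged from 26 to 71, and the median log2 fold change from -0.029 to 0.176 (large) and from -0.033 to 0.185 (small); the low ends, without LSD1skm-/- replicate 2, reversed the direction. The cause was not tested, and the lone LSD1skm-/- library of such a fit is assumed to vary like the others. In the other settings the medians stayed between 0.041 and 0.169 (large) and 0.041 and 0.138 (small). Median levels per length were 35.1 (large) and 20.1 (small) CPM per kilobase with the median transcript length, and 16.7 (small) with subunits by structure. Correlations between same-numbered deviations from the group mean were -0.233 and -0.0334. With 2 LSD1skm-/- libraries these deviations mirror each other, and Ctrl replicate 1 gave -0.233 and 0.233 with them. The values therefore cannot show whether the numbers pair the samples. With the replicate block both subunit medians were 0.041 and 47 members were higher. By edgeR 632 of all tested genes then had an adjusted p under 0.05, against 0 without the block. In that block Ctrl replicate 3 and the library labelled Ctrl replicate 4 have no LSD1skm-/- partner and do not inform the difference, and leaving the latter out alone gave 612. Without the block there were 46 by DESeq2 and 149 of 27041 genes without the filter. Of 414 values of the 26 named genes under other settings, 22, of 11 genes, changed sign. They were 0.025 for Mrpl54, 0.019 for Mrps33 and 0.026 for Mrps18b with library size scaling, 0.009 for Mrps6 and 0.051 for Mrps18b with it without the library labelled Ctrl replicate 4, and -0.042 for Mrpl42 and -0.002 for Mrps21 with the replicate block. With a library left out the ranges were -0.169 to 0.122 (Mrpl54), -0.117 to 0.279 (Mrpl33), -0.150 to 0.210 (Mrpl42), -0.205 to 0.023 (Mrpl30), -0.163 to 0.000 (Mrpl22), -0.061 to 0.223 (Mrps18a), -0.127 to 0.154 (Mrps21), -0.225 to 0.154 (Mrps33), -0.178 to 0.016 (Mrps6), -0.038 to 0.016 (Mrps18b) and -0.108 to 0.275 (Mrps18c). Kdm1a passed an adjusted p of 0.05 without the filter (log2 fold change -2.58), with the replicate block (-2.80) and in all fits without the library labelled Ctrl replicate 4. What depth limits was not tested: the widest 95% intervals were those of Mrps33 (-0.51 to 0.47), the member with the lowest mean count (127), and of Mrpl34 (-0.19 to 0.61), chosen after its values were seen, with a mean count of 1189.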
